A study of Mus musculus with 8 samples.

Results

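The 4 opioid receptor genes Oprm1, Oprd1, Oprk1 and Oprl1 and 4 somatostatin receptor genes, Sstr1 to Sstr4, were followed in 2 populations of mouse sensory neurons. The members were the rows of the count table whose symbol equals 1 of these 8 names, out of 43372 symbols. Of the 8 genes, 7 had at least 1 read count and 4, the opioid receptors, passed the filter on low counts that left 11828 genes for testing. The Sst group carries the genotype Ssttm2.1(cre)Zjh/J, also called Sst-IRES-Cre, in which the recombinase Cre is made from the locus of somatostatin. The Trpv1 group carries Trpv1tm1(cre)Bbm/J, or Trpv1-IRES-Cre, in which Cre is made from the locus of the heat- and capsaicin-gated channel Trpv1. All mice were C57Bl/6, were injected into the abdominal cavity at postnatal day 2 with an AAV9 virus carrying a Cre-dependent eGFP or tdTomato reporter, and were used at 3 to 5 weeks of age. Both sexes were used. From each mouse 150 to 250 fluorescent neurons of the dorsal root ganglia were picked by hand, and 4 independent samples per genotype were sequenced. No group without Cre, and no treatment, is part of the comparison.

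Opioid and somatostatin receptors are G protein-coupled receptors of 1 related family that signal through Gi and Go proteins. When activated they lower cyclic AMP, close voltage-gated calcium channels and open GIRK potassium channels, and so reduce firing and transmitter release. In the dorsal root ganglion the mu receptor (Oprm1) is the main target of morphine-like analgesics, delta (Oprd1) and kappa (Oprk1) receptors bind enkephalins and dynorphins, and Oprl1 binds nociceptin. The somatostatin receptors bind the peptide whose gene drives Cre in the Sst group. A pool of picked cells gives an average, so fewer cells with a transcript and less transcript per cell cannot be told apart.

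Library totals ran from 7419027 to 12153109 counts, with 14437 to 16917 genes detected. All 10 pan-sensory neuron markers listed, among them Tubb3 and Avil, were counted in every library, and they summed to 5686 to 6468 CPM (read counts scaled by library size to a common total) for Sst and 3585 to 4138 CPM for Trpv1. The peptidergic nociceptor list (Calca, Tac1 and 5 others) summed to 43.2 to 161 CPM across the Sst libraries and to 1978 to 2660 CPM across the Trpv1 libraries. Markers of myelinated neurons (Nefh, Pvalb and others) summed to 8438 to 14237 CPM for Sst and 5832 to 6840 CPM for Trpv1, with 9 of 10 genes called higher and 1 lower in the Sst libraries. Without overlap between genotypes were also the NP3 itch neuron list, which holds Sst itself (3940 to 6674 against 2182 to 2369 CPM), the NP1 and NP2 list (162 to 312 against 381 to 664 CPM) and the endothelium and mural cell list (399 to 826 against 201 to 332 CPM). Of the genes tested, 3 of 7 in the NP3 list and 1 of 5 in the endothelium list were called higher in the Sst libraries, and 0 lower. In the NP1 and NP2 list 2 of 7 were called lower and 0 higher. Over all genes tested, 3.04% were called higher and 3.31% lower. Sst was not among the called genes, so the summed values do not stand for every gene of a list. The part of these marker differences in the receptor values was not tested. Xist, a transcript made from an inactive X chromosome, was at 0 counts in Trpv1 replicates 1 and 2 and at 4240 to 12659 counts in the other 6 libraries. These 6, which were 4 Sst and 2 Trpv1 libraries, also held 0 counts of the Y chromosome genes examined. The genotypes were thus not balanced for this split, which the settings named after Xist use. Pituitary markers (Gh, Prl and others) summed to 456.5 CPM in Sst replicate 2 and to 1634 to 1750 CPM in Trpv1 replicates 1, 2 and 3, against at most 3.9 CPM in the other 4 libraries. Schwann and satellite glia markers summed to 782 to 1029 CPM (Sst) and 775 to 1103 CPM (Trpv1).

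Among the receptors only Oprm1 was abundant. Per kilobase of exon it reached 15.7 ± 5.63 CPM among Sst libraries and 28.4 ± 8.63 CPM among Trpv1 libraries (mean ± SD, n = 4 per genotype), while the other members had lower group means. These levels placed Oprm1 above 84.3% and 91.8% of the 11258 tested genes whose length was known. The next levels in the Sst libraries were Oprd1 at 0.936 ± 1.15, Oprl1 at 0.703 ± 0.551 and Oprk1 at 0.237 ± 0.412 CPM per kilobase, followed by Sstr4 and Sstr2 at 0.0699 and 0.0349. In the Trpv1 libraries the order after Oprm1 was Sstr2 at 1.70 ± 2.04, Oprk1 at 0.978 ± 0.527, Oprl1 at 0.820 ± 0.716, Oprd1 at 0.632 ± 0.745, Sstr1 at 0.344 and Sstr4 at 0.256 CPM per kilobase. In both groups the step from Oprm1 to the next receptor exceeded the larger SD of the pair, and each step between neighbours below it was smaller than the larger SD of its pair. The level of Oprm1 depends on the length assigned to it: GENCODE lists 31 transcripts with 8037 bases of exon in all and 2420 in the longest. With the longest transcript as the length, Oprm1 stood at 52.3 ± 18.7 and 94.5 ± 28.7 CPM per kilobase and was again the highest.

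The upstream sequences of the most abundant member and of Oprd1 are set side by side because these genes differ in level and also in CpG content. Having been picked for both traits, the pair cannot show a relation between them, and none was tested. The sequences are the 250 bases before the first RefSeq transcription start whose window holds a CG on build GRCm38.p6, written 5′ to 3′ along the gene, with each CG in capitals. That of Oprm1 lies at chr10:6788320-6788569 on the plus strand, and that of Oprd1 at chr4:132144487-132144736 on the minus strand.
Oprm1: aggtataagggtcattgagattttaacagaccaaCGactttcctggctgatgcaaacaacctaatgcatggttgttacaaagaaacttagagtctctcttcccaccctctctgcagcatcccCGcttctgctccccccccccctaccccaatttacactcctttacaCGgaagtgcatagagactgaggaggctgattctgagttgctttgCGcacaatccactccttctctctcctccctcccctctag
Oprd1: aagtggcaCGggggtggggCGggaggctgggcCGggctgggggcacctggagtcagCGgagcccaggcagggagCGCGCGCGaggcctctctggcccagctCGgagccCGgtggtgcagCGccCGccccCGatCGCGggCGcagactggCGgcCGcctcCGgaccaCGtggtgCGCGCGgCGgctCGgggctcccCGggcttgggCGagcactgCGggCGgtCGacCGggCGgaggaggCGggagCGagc
The dinucleotide CG, which reads the same on both strands, occurs 4 times in the Oprm1 sequence and 34 times in the Oprd1 sequence. Of 32851 windows of the same length, 92.1% hold at least 1 CG, the median is 6, and 37.8% hold fewer than Oprm1 and 96.5% fewer than Oprd1. Sstr4 and Sstr2 held 28 and 18, the 2 Sstr3 windows 1 and 6, and the 3 Oprl1 windows 1 to 3. Another Oprm1 window, further upstream, held 0. The table matched 6 of the 8 members. These are features of the reference sequence, and no reads of this study bear on methylation or binding there.

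Oprm1 (ENSMUSG00000000766, GRCm38 chromosome 10, 6758506 to 7038198, plus strand) encodes the mu opioid receptor. In Sst replicates 1 to 4 it stood at 134, 101, 84.4 and 187 CPM, from 1347, 923, 911 and 2061 counts. In Trpv1 replicates 1 to 4 it stood at 156, 207, 322 and 229 CPM, from 1509, 1618, 2537 and 2161 counts. The groups overlapped only through Sst replicate 4, which lay above Trpv1 replicate 1. The mean was 127 ± 45.3 CPM for Sst and 229 ± 69.4 CPM for Trpv1 (SD, n = 4 per genotype), a log2 fold change of −0.85, Sst over Trpv1. This difference did not pass the test across all genes (SE 0.271, 95% interval −1.41 to −0.29, edgeR quasi-likelihood test, adjusted p = 0.0640). The peptidergic nociceptor list, which does not hold Oprm1, was higher in the Trpv1 libraries in all 7 of its genes, and its part in the Oprm1 values was not tested. Oprm1 shares 96 exon bases with Ipcef1 on the opposite strand, a gene with at most 89 counts in any library.

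The call of Oprm1 depended on the setting. It passed in edgeR once Sst replicate 4 was left out (−1.10 on the log2 scale, adjusted p = 0.0176), with a stricter filter (−0.85, adjusted p = 0.0467) and with a term for Xist (−1.12, adjusted p = 0.0439), and also in DESeq2 (−0.86, adjusted p = 0.0455). It did not pass in the other 16 of 20 alternatives, where the adjusted p reached 0.590. The fold change was negative in all of them, from −1.12 to −0.64, as the plot of settings shows.

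**Figure D1:**
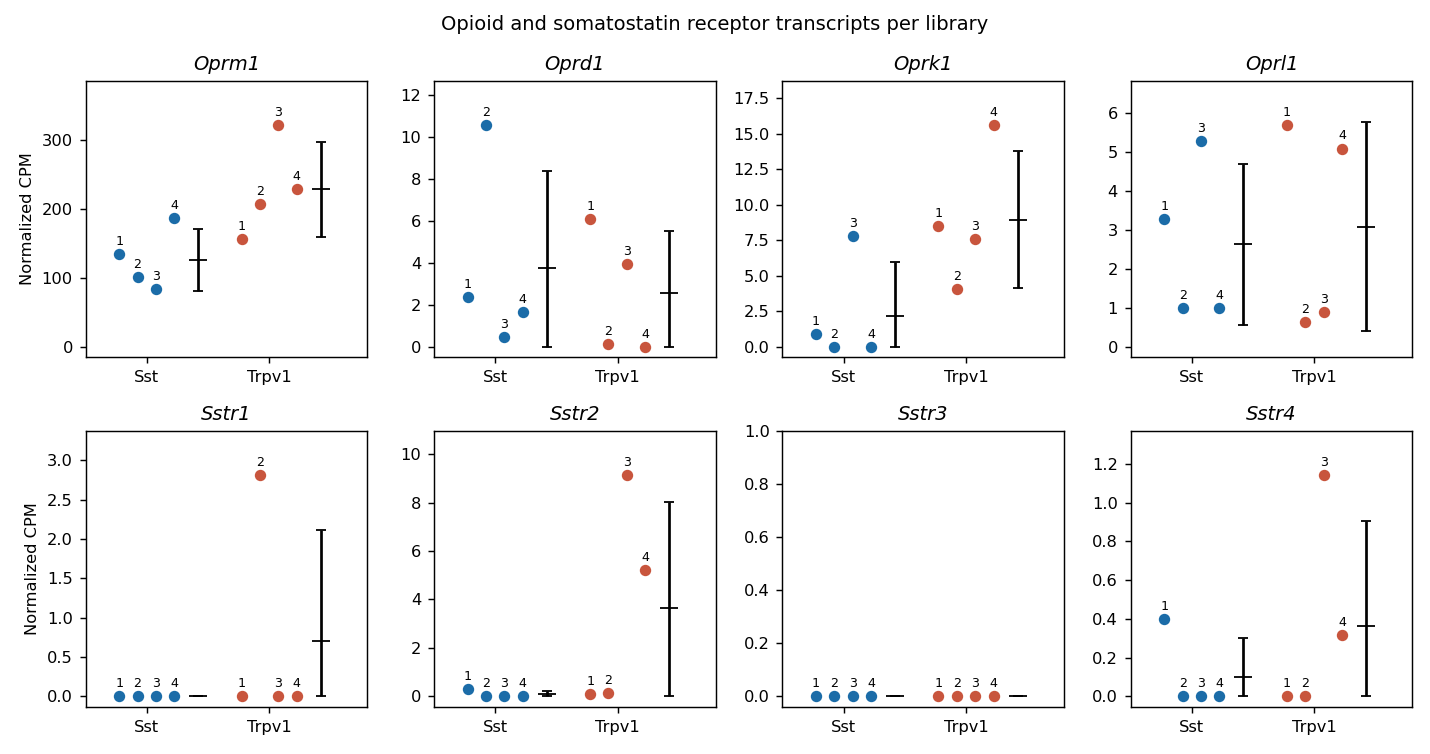
Each panel shows 1 receptor gene, with normalized CPM on the vertical axis (linear, its own scale) and the Sst (blue) and Trpv1 (red) libraries side by side. Points are libraries labelled with their replicate number, and the bar to the right of each group is the mean with its SD, cut at 0. Oprm1 ranges from 84.4 to 322 CPM, whereas no library exceeds 15.6 CPM for any other receptor.

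Oprk1 (chromosome 1, 5588466 to 5606131, plus strand) encodes the kappa opioid receptor. Its counts were 9, 0, 84 and 0 in Sst replicates 1 to 4, or 0.896, 0, 7.79 and 0 CPM. In Trpv1 replicates 1 to 4 they were 82, 32, 60 and 147, or 8.49, 4.09, 7.61 and 15.6 CPM. All Trpv1 libraries held the transcript, and in the Sst group nearly all counts came from replicate 3, which lay within the Trpv1 range. The means were 2.17 ± 3.77 and 8.95 ± 4.82 CPM, and the log2 fold change of −2.01 did not pass (SE 0.888, 95% interval −3.84 to −0.18, edgeR adjusted p = 0.193). Without Sst replicate 3 the log2 fold change was −4.86 and passed (edgeR adjusted p = 0.0428). It was −3.69 in limma voom with sample quality weights (adjusted p = 0.105). For a library with 0 counts, 3 counts set an upper limit of 0.327 CPM in Sst replicate 2 and 0.272 CPM in Sst replicate 4.

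**Figure D2:**
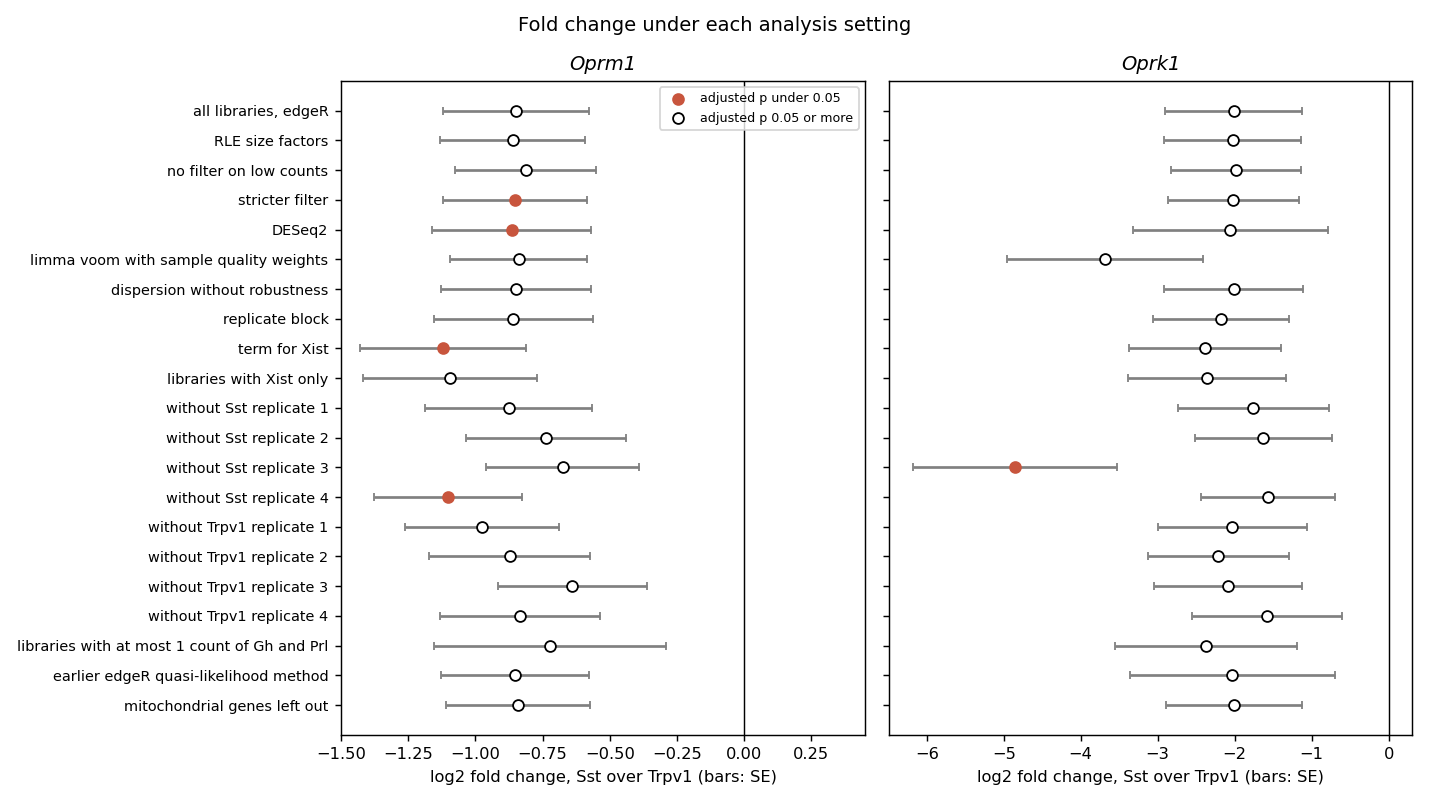
The log2 fold change of Sst over Trpv1 (horizontal axis) is plotted for Oprm1 (left) and Oprk1 (right) under each analysis setting (rows), with bars of 1 SE. Filled points have an adjusted p under 0.05. All points lie below 0. Oprm1 is filled in 4 of the 20 alternatives, and Oprk1 once, without Sst replicate 3.

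Oprd1 (chromosome 4, 132110726 to 132144486, minus strand) encodes the delta opioid receptor. It stood at 2.39, 10.6, 0.463 and 1.63 CPM in Sst replicates 1 to 4 (24, 97, 5 and 18 counts). In the Trpv1 libraries it stood at 6.11, 0.128, 3.93 and 0 CPM (59, 1, 31 and 0 counts). Libraries of 1 genotype differed more than the genotypes did, and the groups overlapped throughout. The log2 fold change was 0.44 and did not pass (SE 0.981, 95% interval −1.58 to 2.46, edgeR adjusted p = 0.855). It was −0.80 without Sst replicate 2, 1.48 without Trpv1 replicate 1, 0.11 without Trpv1 replicate 2 and 0.01 without Trpv1 replicate 4 (edgeR adjusted p from 0.580 to 0.999 over the 8 libraries left out), so these libraries set its direction or size.

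Oprl1 (chromosome 2, 181715016 to 181720985, plus strand) encodes the nociceptin receptor. It stood at 3.29, 0.981, 5.28 and 0.998 CPM in Sst replicates 1 to 4 and at 5.69, 0.639, 0.888 and 5.09 CPM in Trpv1 replicates 1 to 4. Each genotype thus had 2 libraries above 3 CPM and 2 below 1 CPM. The log2 fold change was −0.29 (SE 0.832, 95% interval −2.0 to 1.42, edgeR adjusted p = 0.889). Its sign changed in limma voom and when Sst replicate 4, Trpv1 replicate 1 or Trpv1 replicate 4 was left out, with an edgeR fold change from −0.88 to 0.19 over the libraries left out.

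Of the 4 opioid receptors tested, 0 passed in edgeR, against 6.35% of all genes tested (3.04% higher and 3.31% lower in the Sst libraries). With the replicate number as a block 0 passed, against 4.84%. At an unadjusted p under 0.05 there were 2, Oprm1 and Oprk1, against 20.5% of all genes. DESeq2 called 1, Oprm1, as lower (7.63% of all genes, 4.07% as lower), and limma voom called 0 (5.11%). None of the 4 had groups without overlap, which 11.1% of all genes tested had. Their median log2 fold change was −0.57, and that of all genes was 0.01.

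Within a library, Oprm1 made up most of the opioid receptor level per kilobase. Its share lay between 81.2% and 97.2% for Sst and between 83.1% and 97.5% for Trpv1. These shares, and the order of the other receptors, depend on the lengths used, here the exon bases of all transcripts. With the longest transcript as length, Oprm1 averaged 52.3 CPM per kilobase for Sst, against 0.936 for Oprd1, 0.464 for Oprk1 and 0.850 for Oprl1. For Trpv1 it averaged 94.5, against 0.632, 1.91 and 0.992 in the same order. The second receptor differed from library to library. It was Oprd1 at 17.1% in Sst replicate 2 and Oprl1 at 10.9% in Sst replicate 3, where Oprk1 took 6.61%. In the Trpv1 libraries Oprk1 took between 1.69% and 5.40%, while 2 of the 4 Sst libraries held none of it. With all 4 genes counted together, the opioid receptor reads per library numbered 1029 to 2090 in the Sst and 1656 to 2635 in the Trpv1 libraries.

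**Figure D3:**
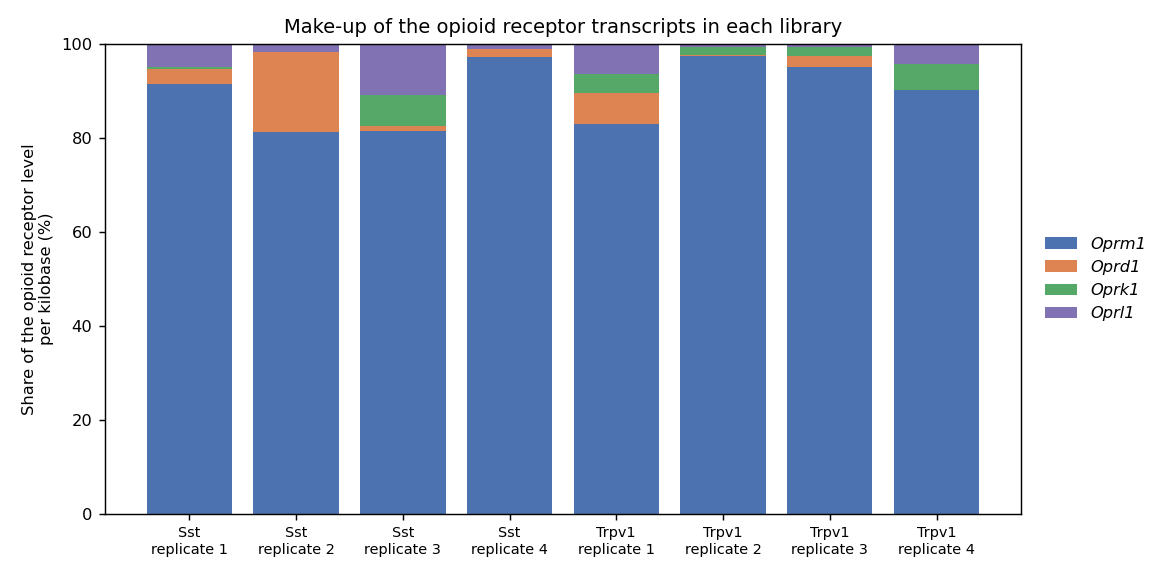
Each bar is 1 library, and its segments are the shares (%, vertical axis) of Oprm1, Oprd1, Oprk1 and Oprl1 in the summed opioid receptor CPM per kilobase. Lengths are the exon bases of all transcripts of a gene. Oprm1 takes 81.2% or more in every bar. The largest of the other segments is Oprd1 or Oprl1 in the Sst bars and Oprd1 or Oprk1 in the Trpv1 bars.

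The somatostatin receptors were close to the limit of detection in the Sst libraries. The 4 genes together held 7, 0, 0 and 0 counts in Sst replicates 1 to 4 and 1, 23, 81 and 52 counts in Trpv1 replicates 1 to 4. Over a whole group, 3 counts correspond to 0.0731 CPM for Sst and 0.0862 CPM for Trpv1, which is the upper limit that a count of 0 allows. These limits and the counting intervals below cover counting error only, since the reads carry no molecular identifiers. None of the 4 genes passed the filter on low counts, so the test with all 8 libraries does not cover them.

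Sstr2 (chromosome 11, 113619342 to 113626028, plus strand) encodes the somatostatin receptor found on many neurons and endocrine cells. It held 3, 0, 0 and 0 counts in Sst replicates 1 to 4 and 1, 1, 72 and 49 counts in Trpv1 replicates 1 to 4. Trpv1 replicates 3 and 4 stood at 9.14 and 5.20 CPM, and the other 6 libraries at 0.299 CPM or less, so the groups overlapped through Sst replicate 1 and Trpv1 replicates 1 and 2. As group sums the ratio of Trpv1 to Sst was 48.4 (95% exact binomial counting interval 16.2 to 238), which does not include the spread between libraries. Tested without a filter, Sstr2 gave a log2 ratio of −5.34 (SE 1.96, edgeR adjusted p = 0.127). Trpv1 replicates 3 and 4 are also the Trpv1 libraries that held Xist, and all 4 Sst libraries held Xist with at most 3 counts of Sstr2. Among the 6 libraries with Xist, where Sstr2 passed the filter, its log2 fold change was −6.33 (edgeR adjusted p = 0.0680). Pituitary markers summed to 1634 CPM in Trpv1 replicate 3 and were at 0 counts in Trpv1 replicate 4, and their part in the Sstr2 counts was not tested.

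Sstr1 (chromosome 12, 58211772 to 58214444, plus strand) was counted in 1 library, with 22 counts in Trpv1 replicate 2 (2.81 CPM) and 0 counts in the other 7. As group sums scaled by library size, its 22 counts in the Trpv1 libraries were 8.65-fold a floor of 3 counts over the Sst group. This ratio is not a lower limit, because it takes the 22 counts as exact. Their counting interval in Trpv1 replicate 2 ran from 1.76 to 4.26 CPM. The ratio rests on Trpv1 replicate 2 alone, without which both groups stood at 0. Pituitary markers summed to 1676 CPM in that library and to 1634 and 1750 CPM in Trpv1 replicates 3 and 1, where Sstr1 was at 0, and their part in the Sstr1 counts was not tested. Sstr4 (chromosome 2, 148395344 to 148396767, plus strand) held 4 counts in Sst replicate 1 and 9 and 3 counts in Trpv1 replicates 3 and 4. Sstr1 and Sstr4 were thus each carried by 1 to 3 libraries. Sstr3 (chromosome 15, 78537008 to 78544685, minus strand) and Sstr5, the remaining somatostatin receptor gene, held 0 counts in all 8 libraries. None of the 36 pairs among the 9 receptors shared a stretch of 50 bases in their annotated transcripts.

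Among the ligand genes only Sst itself was well represented. The transcript stood at 183, 77.7, 196 and 335 CPM in Sst replicates 1 to 4 and at 84.7, 58.4, 70.2 and 163 CPM in Trpv1 replicates 1 to 4. The groups overlapped, with means of 198 ± 106 and 94.2 ± 47.4 CPM (SD, n = 4 per genotype). The log2 fold change of 1.07 did not pass in the fit with all libraries (edgeR adjusted p = 0.0753), but Sst passed without Sst replicate 2 (1.35, adjusted p = 0.0166), without Trpv1 replicate 4 (1.49, adjusted p = 0.0206) and with the replicate number as a block (1.02, adjusted p = 0.0369). Both populations therefore held transcripts of somatostatin. Reads of Sstr1 to Sstr4 together numbered 0 to 7 per library in the Sst group and 1 to 81 per library in the Trpv1 group. Penk, the enkephalin precursor gene, held 6 counts over the Sst and 3 over the Trpv1 libraries, Pdyn (dynorphin) 1 count in all, and Pnoc (nociceptin) and Cort (cortistatin) 0 counts. Pomc, the precursor gene of beta-endorphin and of pituitary hormones, held 1501, 468 and 7 counts in Trpv1 replicates 1, 2 and 3, 5 in Sst replicate 2 and 0 in the other 4. These are the 4 libraries with counts of Gh and Prl above 1, at 937 to 9044 for Gh and 3245 to 11494 for Prl. The part of pituitary RNA in the Pomc counts was not tested.

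The genes through which these receptors signal, and those that regulate them, were taken from lists that also hold Sstr5 and the 6 ligand genes. The lists count 73 genes in the table, 59 of them tested, with Sst among those tested. In edgeR 2 were higher and 7 lower in the Sst libraries, 15.3% of those tested, against 6.35% of all genes. These lists were chosen with earlier results of these data known, so the shares are a description and not a test. Of 16 G protein subunit genes tested, Gng7 was higher and Gng8 lower, both encoding gamma subunits, and 14 did not pass, with a median log2 fold change of −0.14. Gng7 held 55, 107, 443 and 318 counts in the Sst libraries against 47, 23, 0 and 5 counts (log2 fold change 3.35, SE 0.821, edgeR adjusted p = 0.0118). Gng8 held 8, 0, 0 and 0 counts against 29, 69, 46 and 25 counts (−4.56, SE 1.29, edgeR adjusted p = 0.0350). The 2 groups did not overlap for either gene. Gng7 lost its call in 7 of 20 alternatives (adjusted p up to 0.372), among them the fits without Sst replicate 3, Trpv1 replicate 3 or Trpv1 replicate 4 (edgeR adjusted p = 0.0634, 0.0537 and 0.0507), and its log2 fold change was 6.22 among the libraries with Xist (adjusted p = 0.0632). Gng8 lost its call in 14 of 19 alternatives, including when each library other than Trpv1 replicate 4 was left out (edgeR adjusted p from 0.0551 to 0.111). Without Sst replicate 1, the one Sst library with Gng8 reads, its fitted value was −8.53. Gnao1, the Go alpha subunit gene, stood at 1458 ± 301 and 2129 ± 374 CPM and did not pass (log2 fold change −0.55, edgeR adjusted p = 0.0533). Among the alternatives, it passed as lower with RLE size factors, no filter or a stricter filter (edgeR adjusted p = 0.0452, 0.0468 and 0.0402). It also passed in limma voom (adjusted p = 0.0128). It did not pass in DESeq2 (adjusted p = 0.0700), without robustness or with a replicate block (edgeR adjusted p = 0.0792 and 0.0676). Gnb5, of the same list, did not pass (−1.92, edgeR adjusted p = 0.0520), and its groups did not overlap. Gnb5 passed as lower with no filter or a stricter filter (edgeR adjusted p = 0.0486 and 0.0438) and in DESeq2 (adjusted p = 0.00992). It did not pass with RLE size factors, without robustness or with a replicate block (edgeR adjusted p = 0.0504, 0.0561 and 0.108), or in limma voom (adjusted p = 0.0883).

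Effector genes differed one by one. Cacna1e, which encodes the R-type calcium channel, held 83, 18, 0 and 14 counts in the Sst libraries and 2229, 1735, 1120 and 1806 in the Trpv1 libraries. It was lower in the Sst libraries, with a log2 ratio of −6.12 (SE 0.480, edgeR adjusted p = 4.67e-09) and passed in all 20 alternatives. The other 2 genes of its list, the P/Q-type gene Cacna1a and the N-type gene Cacna1b, lay at 0.34 and −0.11 and did not pass. Of the GIRK channel genes only Kcnj3 was tested, at 26.8 ± 14 and 34.7 ± 16.2 CPM (−0.37, edgeR adjusted p = 0.712). Kcnj5 held 0 counts, and Kcnj6 and Kcnj9 were counted in 4 and 5 libraries.

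Of 8 adenylyl cyclase genes tested, 1 was higher, 1 was lower and 6 did not pass. Adcy1, a cyclase stimulated by calcium, held 629, 560, 1230 and 393 counts in the Sst libraries against 137, 5, 71 and 72 counts (log2 fold change 3.07, SE 0.510, edgeR adjusted p = 0.000354). Adcy5, a cyclase inhibited by Gi proteins, held 51, 7, 82 and 0 against 434, 244, 484 and 538 counts (−3.83, SE 0.595, edgeR adjusted p = 0.000139). Each of these genes kept its call in 19 of 20 alternatives. Both lost it in the 4 libraries with at most 1 count of Gh and of Prl, where the Trpv1 group is a single library (edgeR adjusted p = 0.232 for Adcy1 and 0.124 for Adcy5).

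Among regulators, the calls were toward lower values in the Sst libraries. Of 9 RGS genes, whose proteins speed the turn-off of G proteins, 2 were lower, 0 higher and 7 did not pass, with a median of −0.41. Rgs17 stood at 125 ± 23.7 and 389 ± 193 CPM (−1.63, SE 0.272, edgeR adjusted p = 0.000371) and Rgs19 at 1.79 ± 1.37 and 11.5 ± 3.98 CPM (−2.66, SE 0.746, edgeR adjusted p = 0.0292). Rgs17 lost its call only in the 4 libraries with at most 1 count of Gh and of Prl (edgeR adjusted p = 0.353). Rgs19 lost its call in 13 of 20 alternatives, among them leaving out Sst replicate 2, 3 or 4 or Trpv1 replicate 1, 2 or 4 (edgeR adjusted p from 0.0514 to 0.0993). Of 6 trafficking genes 2 were lower, Gprasp2, a receptor sorting protein gene (−1.60, edgeR adjusted p = 0.0221), and Gpm6a, a membrane glycoprotein gene (−2.20, edgeR adjusted p = 0.0209). Gprasp2 lost its call in 7 of 20 alternatives (adjusted p up to 0.560). Among these were the fits without Sst replicate 1 or 3 or Trpv1 replicate 2 (edgeR adjusted p up to 0.134), with a term for Xist (−1.14, adjusted p = 0.235) and in the libraries with Xist (−1.12, adjusted p = 0.294). Gpm6a lost its call in 6 of 20 alternatives (adjusted p up to 0.321), among them the fits without Sst replicate 3 or 4 or Trpv1 replicate 3 or 4 (edgeR adjusted p up to 0.0724). Of the 7 genes of receptor kinases and arrestins and the 8 of peptide-degrading enzymes, 0 passed in edgeR, DESeq2 or limma voom, and 0 had an unadjusted edgeR p under 0.05. Arrb1, an arrestin gene, stood at 111 ± 33.8 and 153 ± 47.4 CPM, and Lnpep, an aminopeptidase gene, at 295 ± 47.0 and 341 ± 89.6 CPM.

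**Figure D4:**
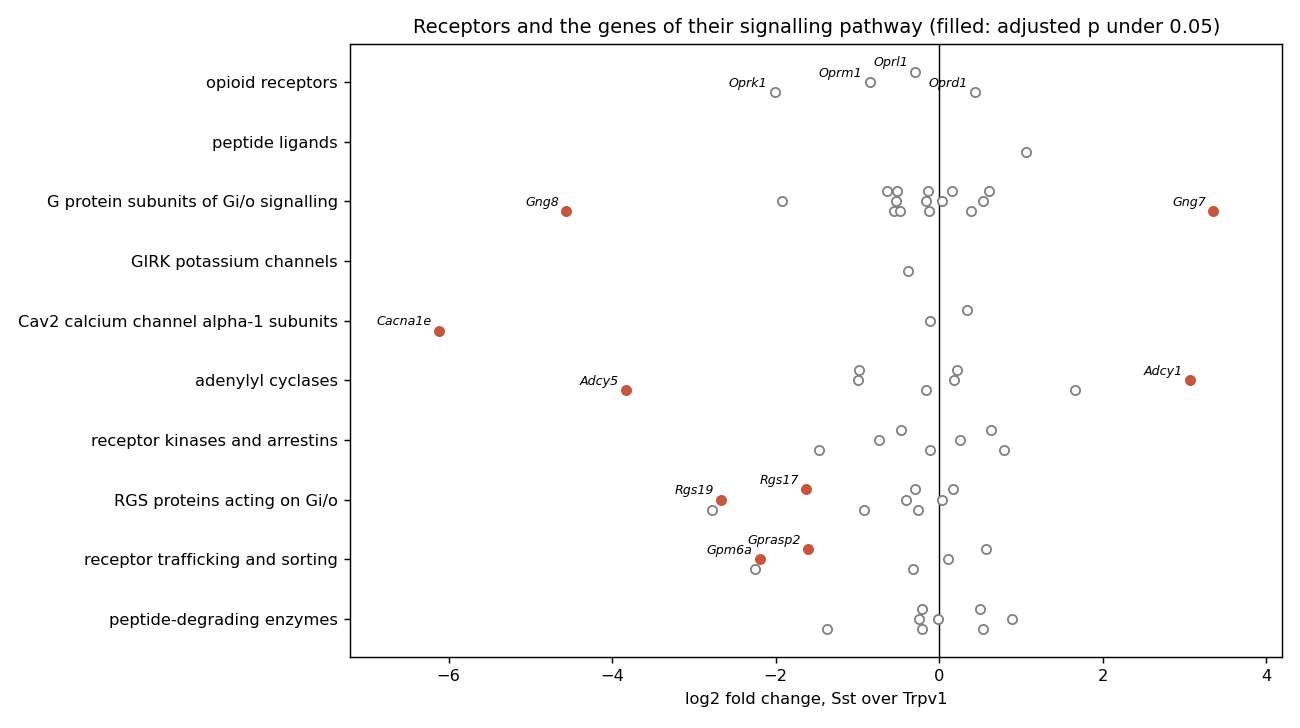
The log2 fold change of Sst over Trpv1 (horizontal axis) is shown for each tested gene, in rows by list; the vertical offset within a row only separates points. Filled points have an edgeR adjusted p under 0.05 and are named, as are the opioid receptors. The opioid receptors lie between −2.01 and 0.44 and are all open, while Cacna1e lies at −6.12.

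Likeness of profile was measured as the root mean square difference between log2 CPM values, each gene centred on its own mean over the 8 libraries, among 10996 genes. The nearest to Oprm1 were Vbp1, at a difference of 0.149, and Mal2, at 0.153, where the median gene lay at 1.00. Both had higher means in the Trpv1 libraries and did not pass (log2 fold change −0.93 and −0.79, edgeR adjusted p = 0.240 and 0.139). For Oprk1 they were Hpcal4 (0.417) and Fxyd5 (0.764), for Oprd1 Efcab5 (0.505) and Zswim3 (0.520), and for Oprl1 Yars2 (0.343) and Ecsit (0.407). With 8 libraries and many low counts these are descriptions of the libraries only.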

How the data were processed

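RNA from hand-picked pools of neurons was sequenced in 8 libraries, 4 per genotype. The authors deposited 1 table of raw counts with a row for each gene symbol. Per the labels' protocols, PicoPure columns gave the RNA, Ovation RNA-seq V2 the amplified cDNA, and Nextera XT the libraries. Amplification from small pools adds spread, most of all to low counts. Per the submitters' processing notes, bcl2fastq 2.17, Trimmomatic 0.33 and featureCounts were used on build GRCm38. Not given in the sources used here were the aligner, annotation, strand setting and treatment of multiply matching reads. Each picking session held 1 sample per genotype, per the labels' protocols, but the labels do not tie replicate numbers to sessions.

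Counts were filtered with filterByExpr (minimum count 10), scaled by TMM and compared by the quasi-likelihood test of edgeR 4.0.16 (R 4.3.3; robust, bias-adjusted method of edgeR 4, genotype alone in the model). Tests were two-sided, adjusted by Benjamini-Hochberg over 11828 genes at a threshold of 0.05. CPM were divided by TMM library sizes, with a prior count of 2 on the log2 scale. Fold changes are Sst over Trpv1. Lengths, coordinates and overlaps came from GENCODE M21 (GRCm38), and upstream sequences from RefSeq (GRCm38.p6). Alternatives were RLE size factors, no filter, a stricter filter (at least 5 CPM in 4 libraries), DESeq2 1.42.0, limma 3.58.1 voom with sample weights, no robustness, a replicate block, a term for Xist, the libraries with Xist only, and leaving out each library. Chosen after seeing the data were the libraries with at most 1 count of Gh and Prl, the earlier quasi-likelihood method, and leaving out mitochondrial genes. The script was run on simulated counts with the same relative spread for every gene, which does not show its error rates for these data. Named were all members, the ligand genes and the 2 genes most like each tested member. Each list added up to 4 called genes with the smallest p, or its most abundant gene. Gnao1, Gnb5, Cacna1a, Cacna1b, the GIRK genes that were not tested and Ipcef1 were named after their values were seen. The members and lists were chosen with earlier results of these data known. The spellings Grk2 and Grk3 stood in the table as Adrbk1 and Adrbk2. P-values set the difference between genotypes against the spread between these samples, which is estimated with help from all genes tested.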

Additional observations from a re-analysis of the deposited data

Results flagged for a closer look

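In 5 of 17 gene and group combinations examined, 1 library lay far from the other 3 of its group, by Dixon's test at its 95% critical value. Chance flags about 1 in 20 groups of normally distributed values, a rate that does not hold for sparse counts like these. In 4 of these 5 the other 3 libraries were all at 0 counts, where a single count suffices. Oprk1 stood at 7.79 CPM in Sst replicate 3, against 0.896 CPM or less in the other Sst libraries. Sstr1 stood at 2.81 CPM in Trpv1 replicate 2 and at 0 in the other Trpv1 libraries. Sstr2 and Sstr4 stood at 0.299 and 0.398 CPM in Sst replicate 1, from 3 and 4 counts. Pomc stood at 0.545 CPM in Sst replicate 2, from 5 counts. The causes were not tested.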

How the results depend on the processing

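Of 11828 genes, 360 were higher and 391 lower in the Sst libraries. The numbers were 168 higher with a term for Xist, 122 higher and 183 lower in the libraries with Xist, 15 higher and 37 lower in the 4 libraries with at most 1 count of Gh and of Prl (3 Sst, 1 Trpv1), and 247 lower with the earlier edgeR method. Leaving out 1 library gave 222 to 411 higher and 222 to 347 lower. Members called lower were 0, and 1 (Oprm1) with the stricter filter, DESeq2 or the term for Xist, at log2 fold changes of −0.85, −0.86 and −1.12. Without single libraries there were 0 to 1 lower (Oprm1 without Sst replicate 4, Oprk1 without Sst replicate 3), and the number higher was 0 throughout.

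Leaving out single libraries moved the log2 fold change from −1.10 to −0.64 for Oprm1, −4.86 to −1.57 for Oprk1, −0.80 to 1.48 for Oprd1 and −0.88 to 0.19 for Oprl1, which was 0.22 in limma voom. Oprd1 was 6.95 in the libraries with at most 1 count of Gh and Prl, where the single Trpv1 library holds 0 counts of it, so this value measures no size. Pathway genes called higher numbered 2, but 1 in limma voom, in the libraries with Xist or with the earlier edgeR method, and 0 in the libraries with few Gh and Prl counts. Those called lower numbered 7, but 4, 1 and 3 in the libraries with Xist, those with few Gh and Prl counts and the earlier method. Without single libraries they ranged from 1 to 3 and from 3 to 6. With the longest transcript as length, Oprm1 stood at 52.3 and 94.5 and Oprk1 in the Trpv1 libraries at 1.91 CPM per kilobase.

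Deviations of same-numbered libraries correlated at −0.03 to 0.03 across genes, and 1 of 4 Sst libraries correlated best with its own number. With so few libraries this measure cannot exclude that replicate numbers pair the libraries. With the replicate number as a block, edgeR called 572 genes, 0 members and Oprm1 at −0.86 (adjusted p = 0.118). The stricter filter left out Oprd1 and Oprl1. The causes of these changes were not tested. With 0 to 7 somatostatin receptor counts per Sst library, differences among these genes were not detectable there at this depth.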
